A study of Mus musculus with 8 samples.

Results

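The interleukin 1 family comprises secreted cytokines, the decoys that hold them in check and the receptors that carry their signal. The 9 genes described here are 4 ligands (Il1a, Il1b, Il18 and Il33), 2 soluble inhibitors (Il1rn and Il18bp) and 3 receptor chains (Il1r1, Il1r2 and Il1rap). They were chosen by gene name and found through array probes whose RefSeq accession belongs to 1 of these genes, which gave 10 probes of the 39428 in the authors' value table. All 9 genes passed the filter on dim probes (well above background in either dye on at least 2 of the 8 arrays), among 26123 genes tested. LECT2 (leukocyte cell-derived chemotaxin 2) is a protein that liver cells secrete into the blood. It was added to cultured macrophages from the mouse peritoneum at 5 µg/ml, called the high dose here, or at 0.5 µg/ml, the low dose. After 48 h or 3.5 h, RNA of these cells was hybridised against RNA of cells kept without LECT2. All cells were grown in low-glucose medium with fetal bovine serum, and the mouse strain, sex and age are not given in the sources used here. Each of the 4 groups (high dose at 48 h, low dose at 48 h, high dose at 3.5 h, low dose at 3.5 h) held 2 arrays, from 2 experiments with different mice.

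Interleukin 1 alpha and beta bind the same receptor, and both are made early by macrophages that meet an inflammatory stimulus. The receptor signals when the ligand-binding chain IL1R1 pairs with the accessory chain IL1RAP, which leads through MyD88 and IRAK kinases to NF-kB. IL1RN occupies IL1R1 without signalling, IL1R2 binds the ligand but lacks a signalling tail, and IL18BP captures interleukin 18 in solution. Interleukin 1 beta and interleukin 18 are made as precursors that inflammasomes activate, so RNA levels alone do not show secreted cytokine.

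The values are log2 ratios of the LECT2 sample over the control sample of the same array, called the LECT2 effect, so a positive value means more RNA in LECT2-treated cells. The authors' table runs the other way, as control (Cy5) over LECT2 (Cy3), and its sign was turned by the dyes in the labels. Dyes were never swapped, so a dye effect that is the same on all arrays cannot be told apart from LECT2. The arrays also go against their records: in 7 of the 8 columns of the authors' table the best-matching scanner file is recorded under another sample (r between 0.974 and 1.00). For replicate 1 of the low dose at 3.5 h, the best match was its own file, at r = 0.782 only. The table's own labels are used for the results, and values from the files as recorded stand beside them. With the matched files, 1 slide holds all 48 h arrays and the other all 3.5 h arrays, so time and slide cannot be told apart in comparisons between times. Across genes, the effects of both replicates of a group had a correlation of r = 0.620 (high dose, 48 h), 0.352 (low dose, 48 h), 0.721 (high dose, 3.5 h) and 0.413 (low dose, 3.5 h). The share of spots above background was 56.4% to 71.7% in the LECT2 channel, against 63.6% to 82.3% for control, and all 9 measured macrophage markers were above background on all 8 arrays in both channels. With 2 arrays a group, the median standard error (SE) of an effect was 0.28 on the log2 scale, and that of a difference between effects 0.40. These are cultures in bulk, so a change in the RNA of a cell and a change in the number of cells that hold it cannot be told apart.

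The sequences before the start of Il1a, Il1b and Il18bp are shown because the LECT2 effects of these genes differed in timing. The effect was largest at 3.5 h for Il1a, called at both times for Il1b and called at 48 h only for Il18bp. The effect is a ratio to control, and the mean LECT2 level of Il18bp was lower at 48 h than at 3.5 h. Each sequence is the stretch of 250 bases that ends just before the RefSeq start, read 5′ to 3′ from the minus strand of assembly GRCm38.p6. The regions are chr2:129309973-129310222 for Il1a, chr2:129371140-129371389 for Il1b and chr7:102018233-102018482 for Il18bp. Il1a and Il1b are neighbouring coding genes.
Il1a: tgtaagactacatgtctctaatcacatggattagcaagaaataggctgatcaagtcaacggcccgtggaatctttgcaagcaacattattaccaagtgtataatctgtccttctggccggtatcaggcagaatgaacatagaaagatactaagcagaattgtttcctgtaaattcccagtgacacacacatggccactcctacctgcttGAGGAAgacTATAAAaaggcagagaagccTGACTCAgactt
Il1b: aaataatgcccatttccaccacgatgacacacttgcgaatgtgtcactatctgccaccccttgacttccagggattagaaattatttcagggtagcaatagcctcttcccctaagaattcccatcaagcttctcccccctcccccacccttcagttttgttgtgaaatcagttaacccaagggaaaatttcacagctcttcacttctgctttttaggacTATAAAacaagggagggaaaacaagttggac
Il18bp: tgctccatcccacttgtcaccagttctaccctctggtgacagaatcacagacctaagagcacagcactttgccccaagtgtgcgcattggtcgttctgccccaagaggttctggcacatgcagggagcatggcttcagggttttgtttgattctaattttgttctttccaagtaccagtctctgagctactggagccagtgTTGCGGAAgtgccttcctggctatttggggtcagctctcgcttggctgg
Capitals mark every match, on either strand, to 7 motifs searched: the NF-kB consensus, TGANTCA (AP-1), GAGGAA (PU.1), TTGCNNAA (C/EBP), the IRF element, TTCNNNGAA (STAT) and TATAAA (the TATA box). In Il1a, GAGGAA begins at -41, TATAAA at -32 and TGANTCA at -12, counted from -1 at the last base before the start. Il1b holds TATAAA at -31 and Il18bp holds TTGCNNAA at -49. Of 32851 promoter stretches of this length, 12.4% hold TATAAA, 23.3% GAGGAA, 9.56% TTGCNNAA, 7.02% TTCNNNGAA, 6.75% TGANTCA and 3.90% the NF-kB consensus. Of the 13 stretches of all 9 genes, TATAAA was found in 5 (4 genes), TTGCNNAA in 3 and TGANTCA in 2. The NF-kB consensus, GAGGAA and TTCNNNGAA were found in 1 each. The NF-kB match lies at -232 of the second start of Il1r1. A match is a stretch of letters and was not tested as a binding site.

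Which of the 4 ligand and 2 inhibitor genes were called higher with LECT2 differed between the 4 groups, and Il33 was called in none. At the high dose and 48 h, 5 of the 9 genes passed (limma, Benjamini-Hochberg adjusted p under 0.05 over all genes): Il1b, Il18bp, Il1a and Il18 rose and Il1r1 fell. Of all genes 11.2% passed in this group, 4.3% as higher and 6.92% as lower. The low dose at 48 h had Il18bp alone higher and 0 lower, against 0.172% of all genes called (0.153% higher and 0.0191% lower). The high dose at 3.5 h had Il1a, Il1b and Il1rn higher and 0 lower, against 21.9% called (10.2% higher and 11.7% lower). The low dose at 3.5 h had Il1a and Il1b higher and 0 lower, against 4.88% called (2.73% higher and 2.15% lower). The median effect of the 9 genes was 1.88, 0.74, 1.09 and 1.25 in these 4 groups, in that order, and that of all genes lay between -0.03 and 0.02. With the matched scanner files and median centring in place of the authors' table, the median of all genes was -0.25, -0.14, -0.27 and -0.13. That setting gave 1789 higher of 8635 called genes, 22 of 65, 2841 of 11826 and 762 of 3310. The same files with loess gave 1494 of 3286, 30 of 33, 4063 of 8120 and 1335 of 2380, and the table gave 1123 of 2931, 40 of 45, 2664 of 5730 and 714 of 1275.

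**Figure D1:**
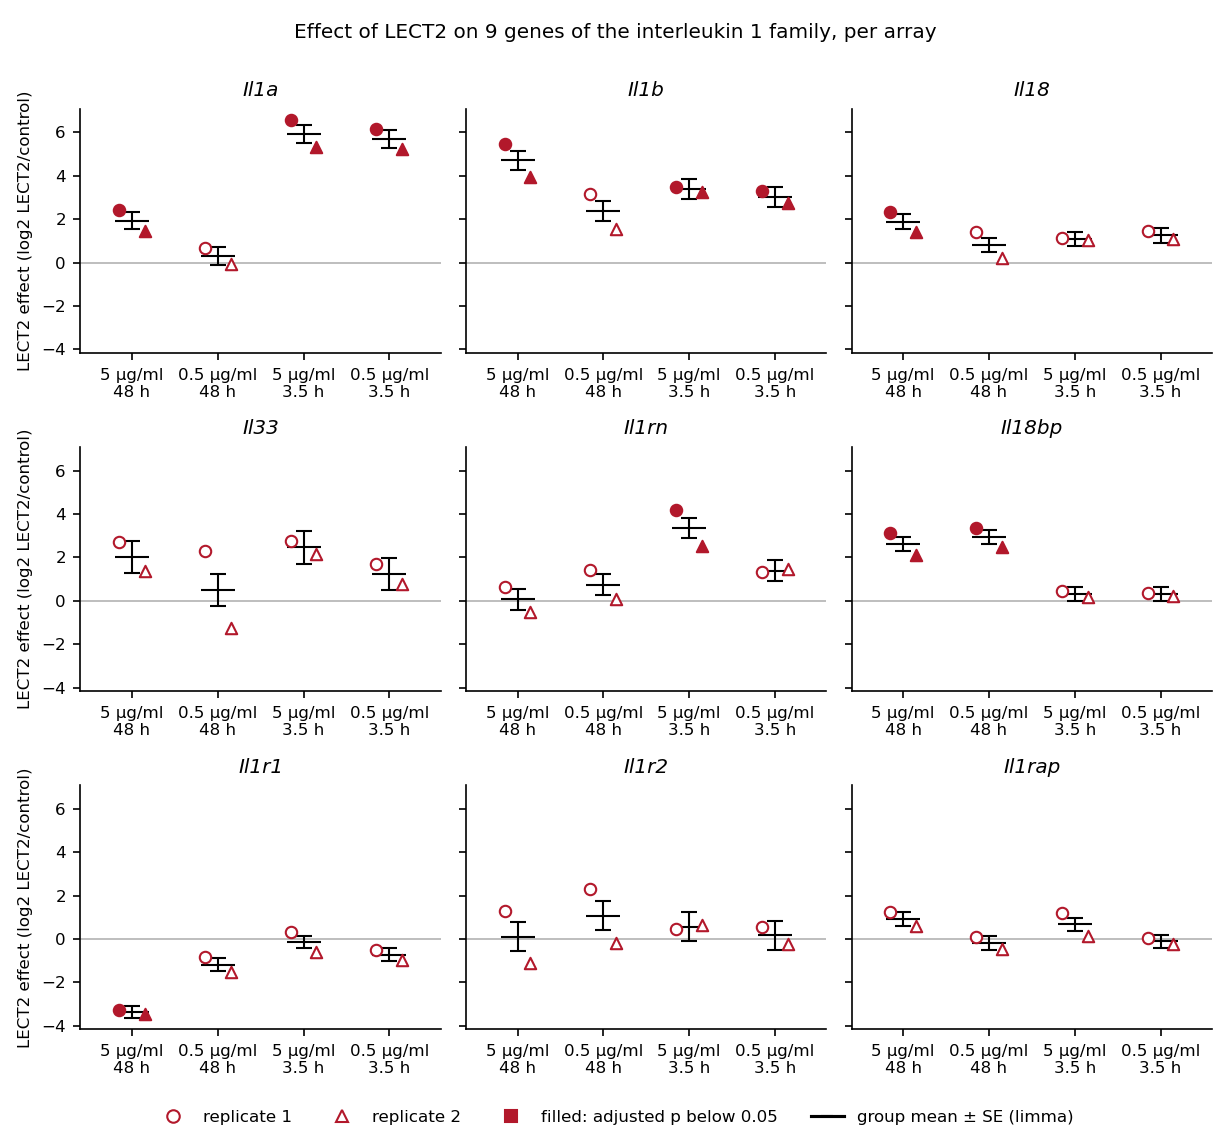
Log2 ratio of LECT2 over control (y axis) of 9 genes in the 4 groups, 1 point for each array and the group mean with its SE from limma; filled points mark groups with an adjusted p under 0.05. Il1b lies above 0 on all 8 arrays, Il1a is highest on the 3.5 h arrays, Il18bp on the 48 h arrays, and Il1r1 is lowest at the high dose and 48 h.

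Il1a encodes interleukin 1 alpha, which is active without inflammasome cleavage and also acts as an alarm signal when cells die. Its LECT2 effect was 2.41 and 1.47 on the 2 high-dose arrays at 48 h, and 0.68 and -0.05 on the low-dose arrays at 48 h. At 3.5 h it was 6.57 and 5.30 at the high dose and 6.17 and 5.21 at the low dose. All 4 arrays at 3.5 h stood far above all 4 at 48 h, and at 48 h both high-dose arrays stood above both low-dose arrays. Il1a rose 3.83-fold at the high dose and 48 h (log2 1.94 ± 0.41 SE, n = 2, limma adjusted p = 0.0273). It rose 61.3-fold at the high dose and 3.5 h (5.94 ± 0.41, adjusted p = 0.000507) and 51.7-fold at the low dose and 3.5 h (5.69 ± 0.41, adjusted p = 0.00186). The effect of 0.31 ± 0.41 at the low dose and 48 h did not pass (adjusted p = 0.856). Without replicate 1 of the high dose at 48 h, the late effect was 1.47 with adjusted p = 0.203, and without replicate 2 it was 2.41 with adjusted p = 0.114. With the files as recorded the 4 effects were 2.61, 4.60, 3.36 and 3.33, in the order of the groups above, and none passed (adjusted p between 0.298 and 1).

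Il1b encodes interleukin 1 beta, the main secreted interleukin 1 of activated macrophages, and its probe has 10 spots on each array. The Il1b effect was 5.48 and 3.93 at the high dose and 48 h, and 3.15 and 1.57 at the low dose and 48 h. At 3.5 h it was 3.50 and 3.27 at the high dose and 3.28 and 2.76 at the low dose. Every array was above 0, whichever file belongs to it, and the high-dose 48 h arrays were the 2 highest of the 8. The 10 spots of an array differed by an SD of 0.03 to 0.24. Il1b rose 26.1-fold at the high dose and 48 h (log2 4.70 ± 0.46, adjusted p = 0.00332), 10.4-fold at the high dose and 3.5 h (3.38 ± 0.46, adjusted p = 0.00337) and 8.13-fold at the low dose and 3.5 h (3.02 ± 0.46, adjusted p = 0.0143). The mean of 2.36 ± 0.46 at the low dose and 48 h missed the threshold (adjusted p = 0.122). Each of the 3 calls was lost without replicate 1 of its own group: the effects were then 3.93 (adjusted p = 0.07), 3.27 (0.0627) and 2.76 (0.118). The files as recorded gave 2.49, 4.69, 3.42 and 2.60, of which the low dose at 48 h passed (adjusted p = 0.0427) and the others did not (0.431, 0.137 and 0.768).

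Il18 encodes interleukin 18, which drives interferon gamma production by T and NK cells. The Il18 effect was 2.34 and 1.43 at the high dose and 48 h, and 1.41 and 0.20 at the low dose and 48 h. It was 1.15 and 1.03 at the high dose and 3.5 h and 1.43 and 1.09 at the low dose and 3.5 h. All 8 arrays were above 0, and apart from replicate 1 of the high dose at 48 h and replicate 2 of the low dose at 48 h they lay close together. Il18 rose 3.69-fold at the high dose and 48 h (log2 1.88 ± 0.34, limma adjusted p = 0.0184). The call was lost without replicate 1 (1.43, adjusted p = 0.155) and without replicate 2 (2.34, adjusted p = 0.0852). Elsewhere Il18 missed the threshold, with 0.81 ± 0.34 at the low dose and 48 h (adjusted p = 0.487), 1.09 ± 0.34 at the high dose and 3.5 h (0.0573) and 1.26 ± 0.34 at the low dose and 3.5 h (0.0794). With loess on the matched files both 3.5 h effects passed (1.20 with adjusted p = 0.0061, and 1.26 with adjusted p = 0.0141). As recorded, the high dose at 48 h gave 0.61 (adjusted p = 0.502).

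Il33 encodes interleukin 33, an alarm cytokine of epithelium and stroma that signals through IL1RL1, and its probe was dim. The Il33 effect was 2.69 and 1.36 at the high dose and 48 h, and 2.29 and -1.27 at the low dose and 48 h. It was 2.77 and 2.14 at the high dose and 3.5 h and 1.71 and 0.79 at the low dose and 3.5 h. The low-dose arrays at 48 h went in opposite directions, and on the first of them the control channel was not well above background. No group passed: 2.02 ± 0.74 (adjusted p = 0.119), 0.51 ± 0.74 (0.872), 2.46 ± 0.74 (0.0516) and 1.25 ± 0.74 (0.38), in the same order. With loess on the matched files the 2 high-dose effects passed, at 1.00 (48 h, adjusted p = 0.0284) and 2.11 (3.5 h, adjusted p = 0.000619).

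Il1rn, the gene of the interleukin 1 receptor antagonist, lies on chromosome 2 near the genes of the IL36 cytokines. The Il1rn effect was 0.64 and -0.52 at the high dose and 48 h, and 1.41 and 0.07 at the low dose and 48 h. It was 4.17 and 2.54 at the high dose and 3.5 h and 1.33 and 1.46 at the low dose and 3.5 h. The 2 high-dose arrays at 3.5 h were the 2 highest of the 8, and the high-dose arrays at 48 h fell on either side of 0. Il1rn rose 10.2-fold at the high dose and 3.5 h (log2 3.35 ± 0.48, limma adjusted p = 0.00409). Without replicate 1 of that group the effect was 2.54 with adjusted p = 0.069, and with the files as recorded it was 0.48 with adjusted p = 0.894. The other effects were 0.06 ± 0.48 (high dose, 48 h, adjusted p = 0.947), 0.74 ± 0.48 (low dose, 48 h, 0.665) and 1.39 ± 0.48 (low dose, 3.5 h, 0.142).

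Il18bp, the gene of the interleukin 18 binding protein, differed from control at 48 h and not detectably at 3.5 h. Its LECT2 effect was 3.12 and 2.10 at the high dose and 48 h, and 3.36 and 2.48 at the low dose and 48 h. It was 0.44 and 0.17 at the high dose and 3.5 h and 0.38 and 0.22 at the low dose and 3.5 h. All 4 arrays at 48 h lay above all 4 at 3.5 h, and the doses overlapped at both times. Il18bp rose 6.12-fold at the high dose and 48 h (log2 2.61 ± 0.32, adjusted p = 0.00605) and 7.59-fold at the low dose and 48 h (2.92 ± 0.32, adjusted p = 0.0245). At 3.5 h the effects were 0.30 ± 0.32 at the high dose (adjusted p = 0.522) and 0.30 ± 0.32 at the low dose (0.638), and both turned below 0 with median centring (-0.48 and -0.21). Without replicate 1 or 2 the high-dose call was lost (2.10 with adjusted p = 0.0917, and 3.12 with adjusted p = 0.0516), as was the low-dose call (2.48 with 0.486, and 3.36 with 0.111). The low-dose call was also lost without either high-dose 3.5 h array (2.92, adjusted p = 0.0853 each). As recorded, the 48 h effects were 1.34 and 1.86 (adjusted p = 0.553 and 0.356).

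The level of Il18bp was also read in each channel of the arrays, where time and slide cannot be told apart. In the LECT2 channel its log2 intensity was 12.85 and 12.64 at the high dose and 48 h, against 9.82 and 10.49 in the control channel. The low dose at 48 h had 13.12 and 13.09 with LECT2, against 10.36 and 10.65 in control. At 3.5 h the LECT2 channel read 13.94 and 13.36 at the high dose and 13.94 and 13.11 at the low dose, against 13.25 and 13.11, and 13.57 and 12.77, in control. The LECT2 channel of all 8 arrays thus lay between 12.64 and 13.94. Its mean was 12.75 at 48 h against 13.65 at 3.5 h at the high dose, and 13.10 against 13.52 at the low dose. The control channel was lower on every 48 h array than on any 3.5 h array. At 48 h the Il1b LECT2 channel was at 14.84 and 14.74 at the high dose and at 11.30 and 11.69 at the low dose, against 9.47 and 10.85, and 9.41 and 10.19, in control. At 3.5 h it was at 16.23 and 15.97 at the high dose and 15.25 and 15.18 at the low dose, against 12.22 and 12.50, and 11.95 and 12.23, in control. Both channels of Il1b were thus lower on every 48 h array than on any 3.5 h array. These levels come from the matched scanner files and share their uncertainty, above all replicate 1 of the low dose at 3.5 h.

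**Figure D2:**
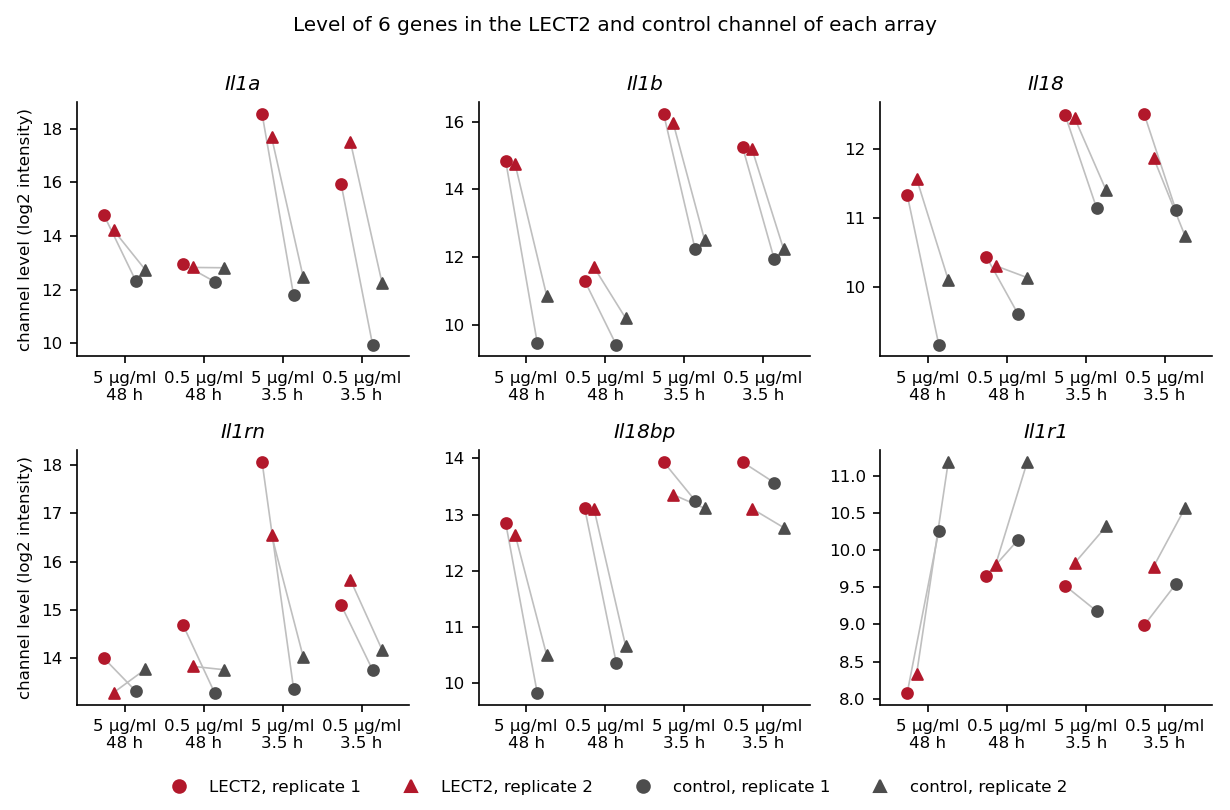
Log2 intensity (y axis, each gene with its own range) of 6 genes in the LECT2 (red) and control (grey) channel of each array, with lines joining the 2 channels of an array; circles are replicate 1 and triangles replicate 2. The Il18bp control level is lower at 48 h than at 3.5 h. Its LECT2 level lies between 12.64 and 13.94 and has a lower mean at 48 h at both doses. The Il1r1 LECT2 level at the high dose and 48 h (8.08 and 8.34) is the lowest of its 8 LECT2 levels.

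Il1r1, the signalling receptor for both interleukins 1, was the only 1 of the 9 genes called lower with LECT2. The Il1r1 effect was -3.26 and -3.46 at the high dose and 48 h, and -0.85 and -1.51 at the low dose and 48 h. It was 0.32 and -0.58 at the high dose and 3.5 h and -0.51 and -0.95 at the low dose and 3.5 h. The 2 high-dose arrays at 48 h were close to each other and well below the other 6. Il1r1 fell 10.3-fold at the high dose and 48 h (log2 -3.36 ± 0.29, limma adjusted p = 0.00291). With loess on the matched files, the effect was -2.52 (adjusted p = 0.00298), and as recorded it was -0.94 (adjusted p = 0.576). The call was lost without replicate 1 (-3.46, adjusted p = 0.0631) and without replicate 2 (-3.26, adjusted p = 0.0624). The other groups did not pass: -1.18 ± 0.29 at the low dose and 48 h (adjusted p = 0.205), -0.13 ± 0.29 at the high dose and 3.5 h (0.777) and -0.73 ± 0.29 at the low dose and 3.5 h (0.198).

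The decoy receptor Il1r2 and the accessory chain Il1rap were dim, and neither passed in any group. Il1r2 had effects of 1.31 and -1.10 at the high dose and 48 h, 2.30 and -0.17 at the low dose and 48 h, 0.48 and 0.63 at the high dose and 3.5 h, and 0.56 and -0.21 at the low dose and 3.5 h. Its replicates took opposite signs in 3 of the 4 groups, and its adjusted p lay between 0.584 and 0.935. Il1rap had effects of 1.23 and 0.62 at the high dose and 48 h, 0.09 and -0.45 at the low dose and 48 h, 1.19 and 0.16 at the high dose and 3.5 h, and 0.03 and -0.24 at the low dose and 3.5 h. At the high dose the adjusted p was 0.0957 at 48 h and 0.156 at 3.5 h, where neither channel of replicate 1 was above background. A second Il1rap probe, for another transcript, was above background on 2 arrays only, neither of them at the high dose and 48 h, and is not compared.

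The dose comparison asked whether 5 µg/ml acted differently from 0.5 µg/ml, and 0 of the 9 genes passed at either time, as did 0% of all 26123 genes. Without adjustment, limma gave p under 0.05 for 2737 genes at 48 h and 2046 at 3.5 h, and with loess on the matched files 21 and 8 genes passed after adjustment. At 48 h the high-minus-low difference was 2.34 ± 0.64 for Il1b (adjusted p = 0.322), -2.18 ± 0.41 for Il1r1 (adjusted p = 0.231) and 1.63 ± 0.58 for Il1a (adjusted p = 0.409). For these 3 genes the 2 doses did not overlap at 48 h, and nor did they for Il18 and the dim Il1rap. For Il18 the nearest arrays were almost level, at 1.43 (high dose) and 1.41 (low dose). With 2 arrays a dose this is no test, and the share of all genes without overlap was not counted. At 3.5 h the difference was 1.96 ± 0.67 for Il1rn (adjusted p = 0.598). The doses did not overlap for Il1rn or for the dim Il33 and Il1rap at 3.5 h, which is no test either. For Il1a the difference was 0.25 ± 0.58 and for Il1b 0.36 ± 0.64 at 3.5 h, and the doses overlapped. For Il18bp it was -0.31 ± 0.45 at 48 h and 0.01 ± 0.45 at 3.5 h. Replicate numbers were not taken as pairs, so a replicate shift shared by both doses stays in these SEs. At 48 h replicate 1 minus replicate 2 was 1.54 at the high and 1.58 at the low dose for Il1b. It was 0.20 and 0.67 for Il1r1, and 0.94 and 0.73 for Il1a. With the replicate number as a term, 0 of all genes passed at either time.

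The comparison of times asked whether the LECT2 effect differed between 48 h and 3.5 h. Slide and the unknown scale and centring of the 3.5 h values cannot be told apart from time here. At the high dose 4 of the 9 genes passed: Il1a, Il1rn and Il1r1 had lower effects at 48 h, and Il18bp a higher one. Of all genes 8.31% passed, 4.52% as higher and 3.79% as lower at 48 h. The difference was -4.00 ± 0.58 for Il1a (adjusted p = 0.0158), -3.29 ± 0.67 for Il1rn (0.0317), -3.23 ± 0.41 for Il1r1 (0.0132) and 2.31 ± 0.45 for Il18bp (0.0272). At the low dose Il1a passed, at -5.38 ± 0.58 (adjusted p = 0.0327), against 0.0995% of all genes (0.0153% higher and 0.0842% lower). The difference of Il18bp at the low dose was 2.63 ± 0.45 with adjusted p = 0.113. Il1b did not pass at either dose (1.32 ± 0.64 at the high dose with adjusted p = 0.23, and -0.66 ± 0.64 at the low dose with 0.829). With the files as recorded the 4 high-dose differences were -0.75, 0.81, 0.88 and 0.10 and the low-dose Il1a difference 1.27, all with adjusted p = 1. Each high-dose call was lost on leaving out any 1 high-dose array, with Il1a between -4.63 and -3.37, Il1rn between -4.10 and -2.47, Il1r1 between -3.68 and -2.78 and Il18bp between 1.80 and 2.82. The low-dose Il1a call held without replicate 2 of the low dose at 3.5 h and was lost without any of the other 7 arrays (between -5.75 and -4.90).

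Untreated cells changed over the same interval, which bears on the ratios because they stand under every effect. In the control channel (both doses of a replicate averaged, n = 2 at each time), 3 of the 9 genes were lower at 48 h than at 3.5 h and 0 were higher. Of all genes 7.67% passed there, 3.76% as higher and 3.91% as lower. Il18bp had log2 levels of 10.35 and 11.13 at 48 h, against 14.14 and 13.60 at 3.5 h. Il1b had 9.49 and 11.08 at 48 h, against 12.69 and 13.04 at 3.5 h, and Il18 had 9.72 and 10.69, against 11.83 and 11.66. In all 3 genes the times did not overlap, and nor did they for Il1r2 and Il1rap, which did not pass. With 2 values at each time this is no test, and the share of all genes without overlap was not counted. The differences were -3.12 ± 0.32 for Il18bp (8.72-fold lower, limma adjusted p = 0.0209), -2.58 ± 0.49 for Il1b (adjusted p = 0.0347) and -1.54 ± 0.33 for Il18 (adjusted p = 0.0453). Il1a stood at 12.86 and 13.34 at 48 h, against 11.48 and 12.98 at 3.5 h (adjusted p = 0.298), and the other 5 genes did not pass either.

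Some markers of other cell types were also lower at 48 h in untreated cells, where 3.91% of all genes were called lower. In the control channel the summed linear level of 6 mast cell markers lay between 2035 and 2920 at 48 h, against 5450 to 18996 at 3.5 h, and 2 of the 6 passed as lower (Cma1 and Cpa3). Of 7 T and NK cell markers 1 passed as lower (Cd3g, adjusted p = 0.0401), with sums of 2075 to 2495 at 48 h against 2669 to 4045 at 3.5 h. Of 6 neutrophil markers S100a8 passed as lower (adjusted p = 0.0326), but the median of the 6 was 0.17 and 4 of them were above 0. Their sums were 1426 to 2081 at 48 h against 2072 to 2645 at 3.5 h, which overlapped. The sum of 6 macrophage markers was 57723 to 93552 at 48 h, against 84089 to 130775 at 3.5 h, so it overlapped. Of the 9 macrophage markers tested 1 passed as lower, with a median of -0.45 and 3 of them above 0. The sum of 7 mesothelium and fibroblast markers also overlapped, at 42966 to 80553 against 16725 to 61868, with 0 of 7 called. Their part in the lower Il18bp, Il1b and Il18 levels was not tested. The control calls were lost with the files as recorded (-0.05, 0.04 and 0.10 for Il18bp, Il1b and Il18, each with adjusted p = 1). Without a filter Il1b (adjusted p = 0.0658) and Il18 (0.0734) did not pass, nor did Il18 with 75th percentile scaling (-1.49, 0.0727). Leaving out replicate 1 at 48 h ended them as well, at -2.74 (adjusted p = 0.132), -1.79 (0.132) and -1.05 (0.167). So did leaving out replicate 1 at 3.5 h, at -2.85 (0.0598), -2.76 (0.0955) and -1.45 (0.148). Without replicate 2 at 3.5 h Il1b was at -2.41 (0.0548) and Il18 at -1.62 (0.0558), and without replicate 2 at 48 h Il18 was at -2.02 (0.0555).

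**Figure D3:**
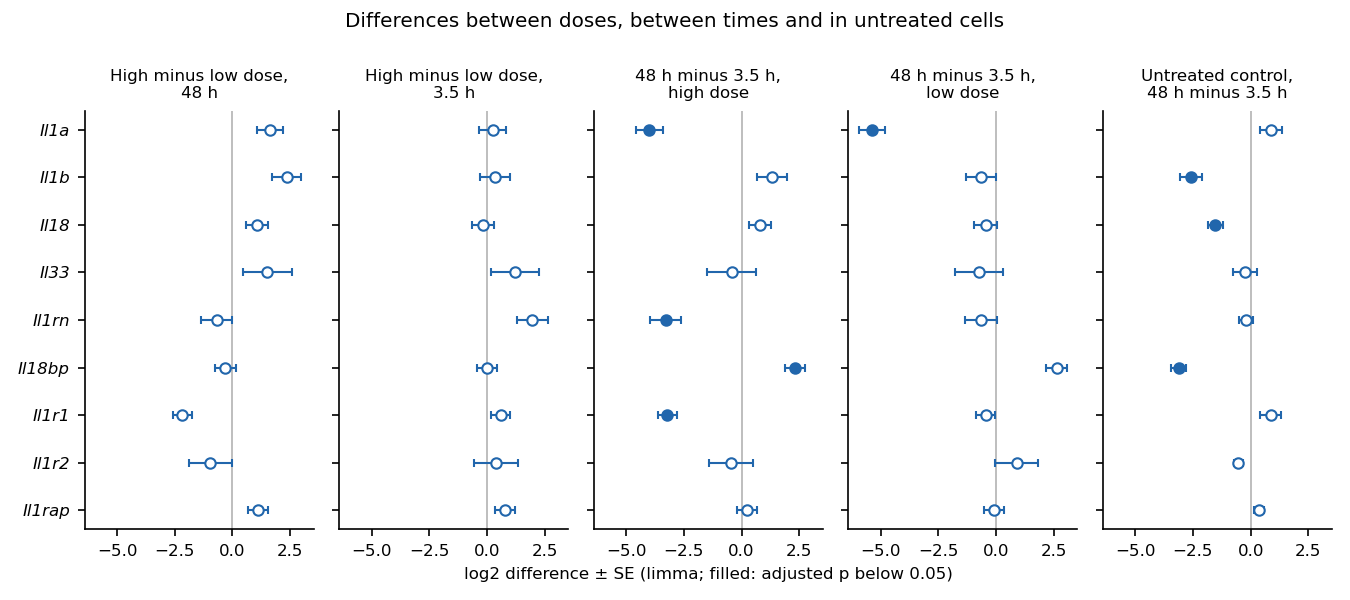
Log2 differences with their SE from limma (x axis) for the 9 genes: LECT2 effects at the high minus the low dose, LECT2 effects at 48 h minus 3.5 h, and the untreated control channel at 48 h minus 3.5 h; filled points have an adjusted p under 0.05. None of the dose differences is filled, Il1a is filled in both time comparisons, and Il1b, Il18 and Il18bp are filled in the control.

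Of the other cytokines of the family, 2 of 5 passed the filter and both were called higher at 3.5 h. There 10.2% of all genes were called higher at the high dose and 2.73% at the low dose. The 2 are Il1f6 and Il1f9, the genes of IL36 alpha and gamma, which lie next to each other on chromosome 2. Il1f6 passed the filter only through the 3.5 h arrays, so its call is in part set by the filter and its values are given as a description only. Il1f9 rose by 4.70 ± 0.31 on the log2 scale at the high dose and 3.5 h (adjusted p = 0.000497), where the control channel of replicate 1 was not well above background, and by 2.51 ± 0.31 at the low dose (adjusted p = 0.00805). Il1f6 had arrays at 4.75 and 4.55 at the high dose and 2.31 and 2.85 at the low dose. These values lay above 0 at both doses, but the Il1f6 control signal was not well above background on replicate 1 of the high dose and on both low-dose arrays. At the low dose and 3.5 h the bound is at least 1.49-fold higher. At 48 h neither passed, and Il1f6 was not above background in either channel of any 48 h array. For Il1f9 the high-dose effect was lower at 48 h than at 3.5 h, with a difference of -4.37 ± 0.44 (adjusted p = 0.00815). Il1f8, Il1f10 and Il36rn were not tested because their probes were too dim or none was matched.

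Of the remaining receptors of the family, 1 passed in 1 group, where 10.2% of all genes were called higher. Among 4 tested (Il18r1, Il1rl1, Il1rl2 and Sigirr), Sigirr, an inhibitory receptor, rose at the high dose and 3.5 h by 1.56 ± 0.30 (adjusted p = 0.0111), and no other passed in any of the 4 groups. Il1rl1, Il1rl2 and Il18r1 follow Il1r1 in the order of coding genes on chromosome 1, and at the high dose and 48 h, where Il1r1 fell, none of the 3 passed.

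Of 5 genes of the inflammasome and of interleukin processing, 3 rose and 1 fell at the high dose and 3.5 h, where 10.2% of all genes were called higher and 11.7% lower. Nlrp3, the sensor of the best known inflammasome, rose by 3.98 ± 0.34 (adjusted p = 0.00085), Casp4 by 1.46 ± 0.27 (0.0101) and the pore protein gene Gsdmd by 1.24 ± 0.24 (0.012). Pycard, the adaptor between sensor and caspase, fell by 1.35 ± 0.23 on the log2 scale (adjusted p = 0.00733). The low-dose arrays at 3.5 h also passed for Nlrp3, which rose by 3.02 ± 0.34 (adjusted p = 0.00601) and Casp4 by 1.50 ± 0.27 (0.0264). The share of all genes called higher was 2.73% there, and 4.3% at the high dose and 48 h. At 48 h Casp4 rose at the high dose by 1.19 ± 0.27 (adjusted p = 0.0345), and 0 of 5 passed at the low dose. Casp1, which cleaves both precursors, passed in none of the 4 groups. The Nlrp3 effect at the high dose was lower at 48 h than at 3.5 h by -2.70 ± 0.48 (adjusted p = 0.0234).

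Of 12 genes that act next to the receptor, 3 rose and 2 fell at the high dose and 3.5 h, again against 10.2% and 11.7% of all genes. Myd88, the adaptor that receptors of this family share with Toll-like receptors, rose by 2.29 ± 0.29 (adjusted p = 0.0029) and Irak3, an inhibitory member of the IRAK family, by 2.22 ± 0.46 (0.0142). The ubiquitin ligase gene Peli1 rose by 1.98 ± 0.29 (adjusted p = 0.00449). Irak1, a signalling kinase, had an effect of -0.99 ± 0.27 (adjusted p = 0.0391), and Tab1 one of -0.99 ± 0.27 (0.0399). Myd88 (1.88 ± 0.29, adjusted p = 0.016) and Irak3 (2.21 ± 0.46, 0.0389) also rose at the low dose and 3.5 h, and 0 of 12 passed at 48 h at either dose. All 4 genes of NF-kB feedback and RNA decay rose at 3.5 h at both doses, with medians of 2.88 at the high and 2.43 at the low dose. Of all genes 2.73% were called higher at the low dose and 3.5 h. Nfkbia, the inhibitor that NF-kB induces, rose by 3.27 ± 0.32 at the high dose and 3.03 ± 0.32 at the low dose. Zc3h12a, whose product degrades cytokine RNAs, rose by 1.64 ± 0.22 and 1.01 ± 0.22. At the high dose and 48 h Nfkbia (1.62 ± 0.32, adjusted p = 0.0225) and Tnfaip3 (1.24 ± 0.23, 0.0192) rose, against 4.3% of all genes called higher.

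**Figure D4:**
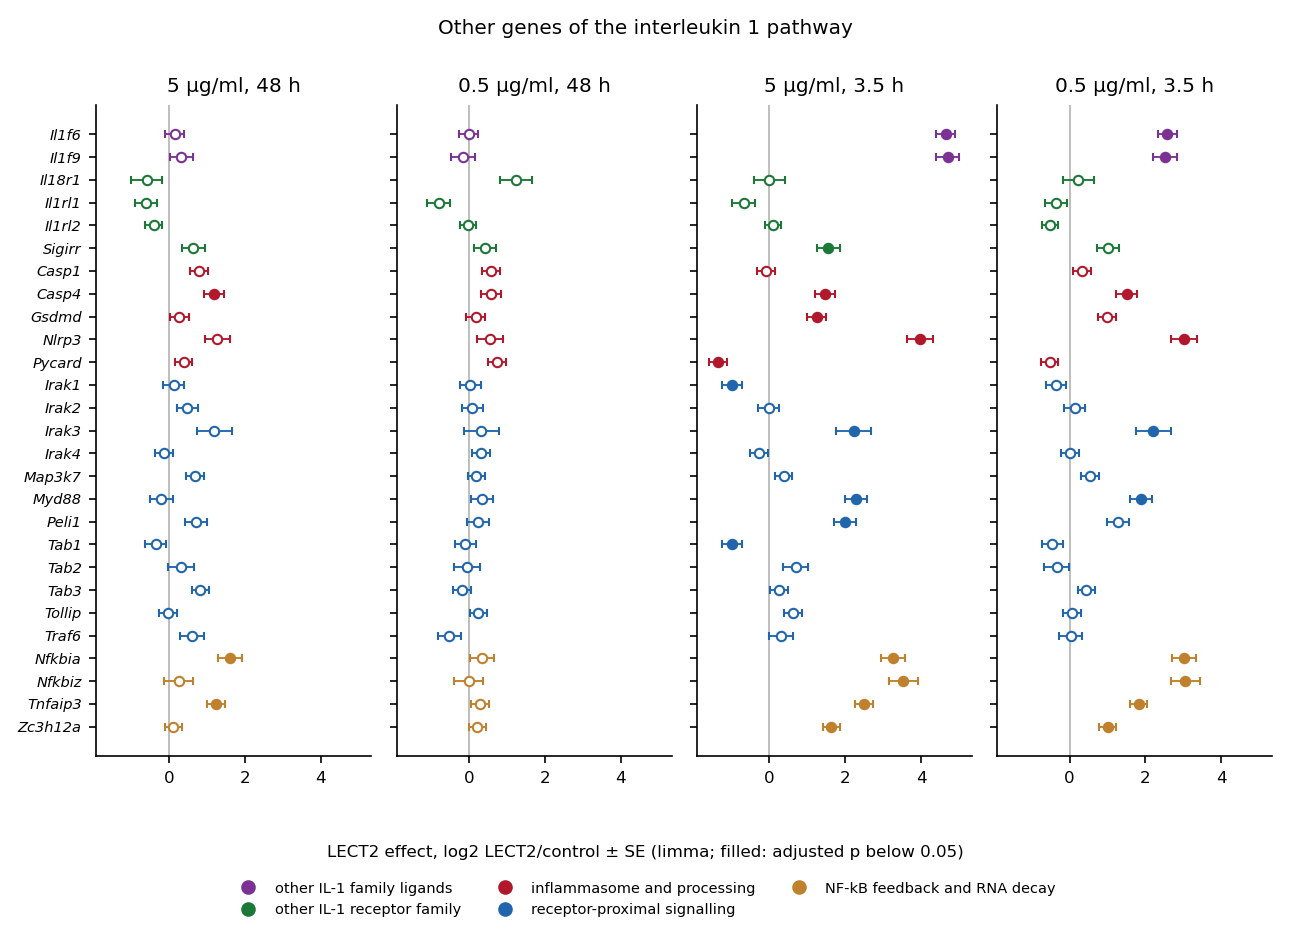
LECT2 effect with its SE from limma (x axis, log2 LECT2 over control) of other genes of the pathway, coloured by list, in the 4 groups; filled points have an adjusted p under 0.05. All 4 NF-kB feedback genes and both measured IL36 genes are filled at 3.5 h, and 3 genes (Casp4, Nfkbia and Tnfaip3) are filled at the high dose and 48 h. Il1f6 passed the filter only through the 3.5 h arrays, so its filled points are a description only.

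Markers of macrophages, of neutrophils, and of mesothelium and fibroblasts were read in the same samples. Of 9 macrophage markers at the high dose and 3.5 h, Cd14 rose by 2.77 ± 0.65 (adjusted p = 0.0232), and Lyz2 (-2.01 ± 0.31, 0.00531) and Csf1r (-1.03 ± 0.31, 0.0495) fell. In that group 10.2% of all genes were called higher and 11.7% lower. Of 6 neutrophil markers at the high dose and 48 h, 1 passed, against 4.3% of all genes called higher: S100a8 rose by 2.99 ± 0.35 (adjusted p = 0.0057). The median of the 6 was -0.21 and 2 of them were above 0. Their summed level was 4328 to 5347 in the LECT2 channel against 1426 to 2081 in control, and most of the LECT2 sum was S100a8, at log2 levels of 11.67 and 12.02. Ngp, a neutrophil granule gene, was not well above background in the LECT2 channel of that group. The part of neutrophils in the higher Il1b at 48 h was not tested. Of 7 mesothelium and fibroblast markers at the high dose and 48 h, 0 passed, with a median of -0.73 and 1 above 0. Their sum was 38004 to 40095 in the LECT2 channel against 42966 to 80553 in control. The median was -0.71 at the low dose and 48 h, -0.61 at the high dose and 3.5 h and -0.97 at the low dose and 3.5 h. The part of these cells in the lower Il1r1 was not tested.

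Across the 8 arrays Il1a, Il1b and Il1rn had other genes with nearly the same profile, given as a description since the arrays share experiments and slides. Among 16729 named genes the LECT2 effect of Il1a was most like that of Riok2 (r = 0.992), Relb (0.991) and Intu (0.990). That of Il1b was most like Wnt9a (0.995), Rasgrp1 (0.988) and Irf1 (0.983), although Wnt9a lay below 0 on 7 of the 8 arrays. That of Il1rn was most like Shf (0.983), Pramel25 (0.979) and Rps6ka3 (0.978). Within the family, Il1b and Il18 had r = 0.951 and Il1a and Il18bp r = -0.890 over the 8 arrays.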

How the data were processed

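RNA of LECT2-treated (Cy3) and untreated (Cy5) mouse peritoneal macrophages was compared on 8 Agilent arrays, per the labels. The slides were read with Agilent Feature Extraction 10.7.3.1, per the submitters' processing notes. The deposited scanner files give each channel's spot and background intensity. They also give the authors' log10 ratio of Cy5 over Cy3. The deposited value table is in log2 units and its making is not stated. Its 48 h columns equal the software's ratio within 0.01 for 99.5% to 99.6% of probes above background, and its 3.5 h columns for 4.0% to 14.2%. Scale and centring of the 3.5 h columns thus stay unknown, and column medians lay between -0.22 and 0.08.

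The table with its sign turned was the main source. Each gene was read from its brightest probe, named through a RefSeq table of assembly GRCm38.p6, which named 26412 of 39429 probes. Genes with 2 or more arrays well above background in a channel were tested with limma 3.58.1 in R 4.3.3, with 1 mean per group, 4 residual degrees of freedom and p-values adjusted by Benjamini-Hochberg. The control channel between times came from the matched files (normexp offset 50, quantile scaling, 2 residual degrees of freedom, 26077 genes). Channel levels came from loess and Aquantile scaling. Replicates are separate experiments per the labels. The early time is 3.5 h in the titles, used here, and 3 h in the channel labels. Deviations of replicates of the same number correlated between groups at r between -0.06 and 0.47, highest between the 2 doses at 48 h. The series text does not tie the numbers to its 2 experiments, so they were not taken as pairs in the main fit. The fit was checked on simulated data, but the outcome is not given here, so it lends no support to the results.

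The genes, gene lists and tests were chosen with earlier results of these data known. All 9 genes were named in every comparison, up to 4 called genes of each other list, and for Il1a, Il1b and Il1rn the 3 genes most like them. Alternatives were the matched files (loess, processed signals, median centring), 75th percentile scaling of the control channel, the files as recorded, other filters, probe means, a replicate block, fits on the groups compared alone, trended variance and leaving out each array. The result of 1 other marker list is not reported here.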

Additional observations from a re-analysis of the deposited data

Results flagged for a closer look

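The LECT2 effect of 4 genes differed between 48 h and 3.5 h by a test of the difference itself. At the high dose the difference was -4.00 for Il1a, -3.29 for Il1rn, 2.31 for Il18bp and -3.23 for Il1r1, and at the low dose it was -5.38 for Il1a. Each rests on 2 arrays a group. Time cannot be told apart from slide or from the unknown scale and centring of the 3.5 h values. The untreated Il18bp level itself was lower at 48 h than at 3.5 h by -3.12. Its mean LECT2 level was 12.75 at 48 h against 13.65 at 3.5 h at the high dose, and 13.10 against 13.52 at the low dose.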

How the results depend on the processing

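With 2 arrays a group, no dye swap and columns that disagree with their recorded files, no effect has an independent check of its group, and dim genes (Il33, Il1r2, Il1rap) are limited by signal near background. Every dose difference stayed at 0 genes of the family called in all alternatives run. With the files as recorded 0 genes were called at the high dose and 48 h, at both doses at 3.5 h, in both time comparisons and in the control. At the high dose and 3.5 h, 5 genes were called with matched files and loess, with processed signals, with the filter on all 8 arrays, with the replicate block and with the groups compared alone. The low dose at 3.5 h had 0 called with the groups compared alone. The low dose at 48 h had 0 called without a filter and with trended variance, and 2 with the replicate block. In the low-dose time comparison 2 were called with matched files and loess and with median centring, and 0 without a filter, with the groups compared alone and with trended variance. In the control comparison 1 was called without a filter. Leaving out 1 array gave 0 to 6 genes at the high dose and 48 h, 0 to 1 at the low dose and 48 h, 1 to 5 at the high dose and 3.5 h, and 1 to 2 at the low dose and 3.5 h. It gave 0 to 4 in the high-dose and 0 to 1 in the low-dose time comparison and 0 to 2 in the control.

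The replicate block (replicate number as a term) ended no call and brought 7 values past the threshold: Il1b at the low dose and 48 h (adjusted p = 0.0398), Il33 (0.0412) and Il1rap (0.0423) at the high dose and 48 h, Il18 (0.0272) and Il33 (0.0151) at the high dose and 3.5 h, Il18 at the low dose and 3.5 h (0.0388) and Il1r1 in the control (0.0332). The series text names 2 experiments without tying them to the numbers, and 3 of 6 pairs of groups had a correlation above 0.1. Of 824 alternative values 684 kept their direction and side of the threshold, 74 lost a call, 31 gained one and 35 changed sign. This total pools called and uncalled values and leaves out the dose differences. Many could not change sign, because the replicate block, trended variance and fits on the groups compared alone leave an effect at the same value. So does leaving out an array of another group. The total is thus no measure of how firm the calls are. With the files as recorded the sign turned for Il1rap at 48 h (-0.11 at the high and 0.57 at the low dose), Il1r2 at the high dose and 3.5 h (-0.30), and the time differences of Il1rn (0.81) and Il1r1 (0.88) at the high and Il1a (1.27) at the low dose. In the control it turned for Il1b (0.036), Il18 (0.10), Il33 (0.047), Il1r1 (-0.12), Il1r2 (0.21) and Il1rap (-0.034), and with 75th percentile scaling for Il33 (0.67) and Il1r2 (0.41). Median centring turned Il1rn at the high dose and 48 h (-0.65), Il1a (-0.19) and Il33 (-0.36) at the low dose and 48 h, and Il18bp at 3.5 h (-0.48 and -0.21). Loess on matched files turned Il33 (-0.37) and Il1r2 (-0.072) at the low dose and 48 h, processed signals Il1rap at the low dose and 3.5 h (0.019), and probe means Il1rap there (0.12) and at the high dose and 48 h (-0.10). Leaving out 1 array also turned signs, with ranges of -0.52 to 0.64 for Il1rn and -1.10 to 1.31 for Il1r2 at the high dose and 48 h, and -0.055 to 0.68 for Il1a, -1.27 to 2.29 for Il33, -0.17 to 2.30 for Il1r2 and -0.45 to 0.091 for Il1rap at the low dose and 48 h. They were -0.58 to 0.32 for Il1r1 at the high dose and 3.5 h, -0.21 to 0.56 for Il1r2 and -0.24 to 0.032 for Il1rap at the low dose and 3.5 h, and -0.54 to 0.13 for Il1rn and -1.13 to 0.65 for Il33 in the control. The cause was not tested for any of these.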

Other observations

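Differences between the effects of 2 genes on the same array were looked at after the values had been seen, since they leave out whatever shifts both genes of an array alike. The effect of Il1b minus that of its antagonist gene Il1rn was 4.83 and 4.45 at the high dose and 48 h, against 1.74 and 1.50 at the low dose and 48 h. At 3.5 h it was -0.67 and 0.73 at the high dose and 1.96 and 1.30 at the low dose. With loess on the matched files replicate 1 of the low dose at 48 h stood at 0.49 in place of 1.74, below replicate 2 of the high dose at 3.5 h (0.94). The effect of Il18 minus that of Il18bp was -0.79 and -0.68 at the high dose and 48 h and -1.95 and -2.28 at the low dose and 48 h, against 0.71 and 0.86, and 1.06 and 0.87, at 3.5 h. Within each group the 2 arrays differed by an SD of 0.08 to 0.24 in this difference.

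Replicate 1 had the higher LECT2 effect in 9 of 9 genes at the high dose and 48 h, in 9 of 9 at the low dose and 48 h, and in 8 of 9 in each group at 3.5 h. Among all genes the share was 49.4%, 49.7%, 49.8% and 47.3%. The median gap over the 9 genes was 1.02, 1.21, 0.63 and 0.44 on the log2 scale, against -0.01, 0.00, 0.00 and -0.04 over all genes.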
